A study of Mus musculus with 16 samples.

Results

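The basement membrane and network collagens were examined in lymphatic endothelial cells sorted from mouse hearts after sham surgery or myocardial infarction (MI, in which a coronary artery is tied off). The set was fixed by gene symbol and holds 9 of the 15895 genes in the table: Col4a1 to Col4a6, which encode the 6 chains of type IV collagen, Col8a1, Col15a1 and Col18a1. All 9 were in the table under a single row each, and all 9 passed the filter on low values. The animals were CD1 mice with no engineered allele, operated at postnatal day 56 (P56) or day 1 (P1), and hearts were taken 3 days after surgery in every group. The 4 groups were MI at P56, sham at P56, MI at P1 and sham at P1, with 4 libraries each. Cells were taken from the fraction without cardiomyocytes on a Percoll gradient and sorted as CD45-, CD31+ and podoplanin+. Neonatal ventricles were pooled in groups of 6, minced and digested under agitation, whereas adult hearts were from males and were digested by perfusion, so that age cannot be told apart from pooling, digestion, surgery and sex.

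Type IV collagen is the network-forming collagen of every basement membrane. Its chains assemble inside the cell into trimers, the ubiquitous one holding a pair of α1(IV) chains and an α2(IV) chain, while the α3(IV), α4(IV) and α5(IV) chains form the trimer best known from the kidney glomerulus and α5(IV) also joins α6(IV). Col8a1 encodes a chain of type VIII collagen, a short-chain collagen that forms hexagonal lattices and is made by vessel walls. Col15a1 and Col18a1 encode the multiplexins, collagens of basement membrane zones with heparan or chondroitin sulfate chains, and the C-terminal end of the Col18a1 product is released as endostatin. Initial lymphatic capillaries are known for a thin and discontinuous basement membrane.

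The 6 type IV genes lie in 3 pairs that are read away from each other. Start regions of the first 2 pairs are shown, whose members had similar values across libraries. A part of these regions in that likeness was not tested. In the mm10 (GRCm38) coordinates of the table, Col4a1 (ENSMUSG00000031502, minus strand) covers chr8:11198423-11312826 and Col4a2 (ENSMUSG00000031503, plus strand) covers chr8:11312805-11449287, so that their ends overlap by 22 bases. Col4a4 (ENSMUSG00000067158, minus strand) covers chr1:82448423-82586849 and Col4a3 (ENSMUSG00000079465, plus strand) covers chr1:82586921-82722059, with 71 bases between them. Col4a6 (ENSMUSG00000031273, minus strand) covers chrX:141165403-141474076 and Col4a5 (ENSMUSG00000031274, plus strand) covers chrX:141475385-141689234, with 1308 bases between them. The windows below are 300 bases around the start, mostly before it, from RefSeq on GRCm38.p6, and 8 of the 9 genes had such a window (Col4a3 was not among them). In the windows of Col4a1 (chr8:11312777-11313076, minus strand) and Col4a2 (chr8:11312555-11312854, plus strand), capitals mark the 78 bases that both hold, on opposite strands. In the window of Col4a4 (chr1:82586800-82587099, minus strand), capitals mark the 71 bases between the annotated starts of Col4a4 and Col4a3.
Col4a1: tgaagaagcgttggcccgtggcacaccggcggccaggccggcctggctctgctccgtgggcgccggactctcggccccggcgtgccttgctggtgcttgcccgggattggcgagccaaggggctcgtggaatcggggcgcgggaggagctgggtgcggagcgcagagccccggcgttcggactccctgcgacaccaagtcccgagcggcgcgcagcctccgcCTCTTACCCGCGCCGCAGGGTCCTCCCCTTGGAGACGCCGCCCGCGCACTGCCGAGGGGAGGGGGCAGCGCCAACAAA
Col4a2: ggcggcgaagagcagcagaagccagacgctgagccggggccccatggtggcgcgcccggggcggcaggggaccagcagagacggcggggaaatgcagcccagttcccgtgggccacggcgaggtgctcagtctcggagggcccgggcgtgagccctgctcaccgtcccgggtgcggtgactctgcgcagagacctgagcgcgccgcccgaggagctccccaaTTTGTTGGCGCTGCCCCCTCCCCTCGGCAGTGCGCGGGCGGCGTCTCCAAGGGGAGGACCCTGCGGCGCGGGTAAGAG
Col4a4: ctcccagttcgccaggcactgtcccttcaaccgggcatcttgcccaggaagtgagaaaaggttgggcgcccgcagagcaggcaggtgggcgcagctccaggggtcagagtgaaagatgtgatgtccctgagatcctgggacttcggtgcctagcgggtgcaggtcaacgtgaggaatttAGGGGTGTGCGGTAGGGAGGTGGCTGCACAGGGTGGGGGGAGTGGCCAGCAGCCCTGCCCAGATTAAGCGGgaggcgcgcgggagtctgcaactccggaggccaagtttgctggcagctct
The G+C content was 74.0% in the Col4a1 window and 73.7% in the Col4a2 window, against 53.8% over 32851 promoter windows of the same length, and it was 63.3% in the Col4a4 window. The TATA box letters TATAAA, searched on both strands, were in none of the 9 windows of the 8 matched genes (Col18a1 has 2 windows) and in 13.6% of all windows. The CCAAT box letters CCAAT were in the Col4a1 and Col4a2 windows and in 37.4% of all windows, but not in the Col4a4 window. The GC box letters GGGCGG were also in the Col4a1 and Col4a2 windows, in 35.7% of all windows and not in that of Col4a4. No match overlapped another in the 3 printed windows, and a match is a description of the letters only.

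Values are the deposited ones, which the authors named CPM, and n is the number of libraries. In 3 libraries 7746 to 9451 genes had a read, against 14121 to 15821 in the others, and 1 gene, Uqcrc1 (a subunit of respiratory complex III), took 18.1% to 99.8% of their reads. These 3 (MI P56 library 5 and sham P1 libraries 1 and 2) were left out of the fit with 13 libraries. Each call of the collagens and of the related gene lists is also given from all 16. Counts of called cell type markers are from the 13 libraries unless said otherwise, and those cited were lower with 16. Sham P1 thus rests on 2 libraries, and in sham P1 library 5 Uqcrc1 took 47.3% of the reads. The 13 libraries held 17103319 to 26904599 reads, of which 6709566 to 12918569 lay outside Uqcrc1 and the mitochondrial ribosomal RNA genes, and 3 reads were worth a value of 0.0489 to 0.109. The labels do not say how pools or animals of a group relate, so p-values measure the spread between these libraries, which may be technical. The lymphatic markers Prox1, Lyve1, Flt4 and Pdpn were detected in all 13 libraries, the lowest value being 8.79 for Pdpn, with summed lymphatic markers of 979 to 2340 in MI P56, 1740 to 3060 in sham P56, 1560 to 2550 in MI P1 and 2020 to 2950 in sham P1. Markers of other cells were present too, and sums are given beside results they move with. Fibroblast markers summed to 3610 to 7800 in MI P56, 731 to 3190 in sham P56, 1810 to 5370 in MI P1 and 3050 to 6320 in sham P1. In every MI P56 library this sum exceeded the lymphatic one. Cardiomyocyte markers summed to 1270 to 2310 in sham P56. The lists differ in their genes, so these sums do not give shares of cells. Markers of endothelium in general summed to 323 to 579 in MI P56 and 639 to 749 in sham P56, with a median log2 change of -0.73. Of these 7 markers 3 were called lower (0 with 16 libraries) and none higher, where 1.07% of all genes were called lower and 2.36% higher. In these sorted pools, fewer cells of a type and less RNA per cell cannot be told apart.

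Between them the 9 genes were called in 7 tests out of the 5 comparisons, where a call is a limma p under 0.05 after Benjamini-Hochberg adjustment across the whole table. For MI against sham at P56, 1 gene was higher (Col8a1) and none lower, where 2.36% of the 13033 genes tested were called higher and 1.07% lower. The median log2 change of the 9 genes was 0.19, beside 0.01 over all genes. For MI against sham at P1 none of the 9 was called, and 0% of all genes were called higher or lower (485 genes had an unadjusted p under 0.05; edgeR called 0 genes and DESeq2 7). The median change of the 9 there was 0.44, beside 0.02 over all genes, with 8 positive and 1 negative. With all 16 libraries that median was 0.43, beside 0.39 over all genes. The 9 changes share the same sham P1 libraries, and the share of all genes with a positive change was not counted. For the difference between the MI responses at P56 and P1 none of the 9 was called, where 0.322% of all genes were called higher and 0.161% lower. For P56 against P1 in sham hearts, 3 were higher (Col4a3, Col4a4 and Col8a1) and 1 was lower (Col18a1), where 5.89% of all genes were called higher and 7.28% lower. For P56 against P1 after MI, 1 was higher (Col8a1) and 1 lower (Col18a1), where 2.09% of all genes were called higher and 3.26% lower. In a list of 9 genes, a count of 1 is a share near or above these backgrounds by construction, so the genes are described singly. The comparisons share groups and are not independent of each other. Where groups are said below not to overlap, this describes the libraries, and the share of all genes that part likewise was not counted.

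With all 16 libraries, fewer calls were made among all genes: 0.143% higher and 0.0302% lower for MI at P56, 0% in both directions for MI at P1 (1586 genes had an unadjusted p under 0.05), 0.00755% higher and 0% lower for the difference between the responses, 2.52% higher and 1.39% lower for age in sham, and 0.0529% in each direction for age after MI. Col4a3 and Col4a4 with age in sham and Col8a1 with age after MI were called in that fit, and the other 4 calls were not. In that fit the median of all genes was itself shifted, by -0.17 and 0.39 for MI at P56 and P1 and by 0.36 and -0.18 for age in sham and after MI.

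**Figure D1:**
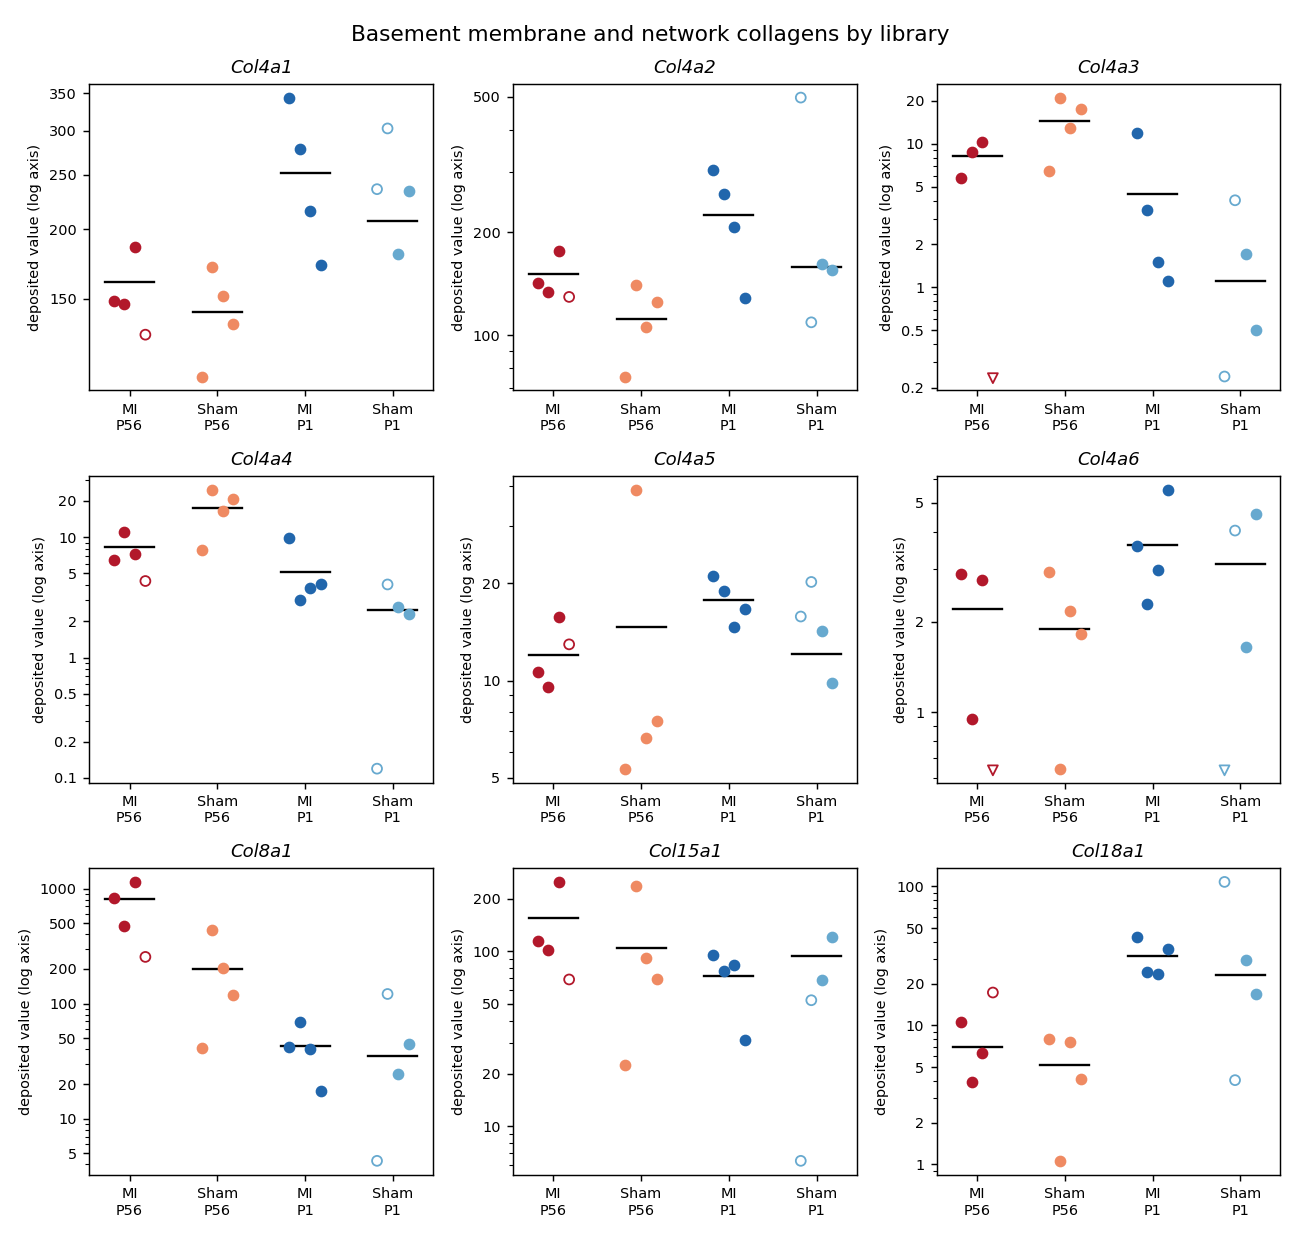
Deposited value of each of the 9 collagen genes in every library (log axis), by group. Filled points are the 13 libraries of the fit and bars their mean, open circles are the 3 libraries left out, and open triangles at the lower edge are left-out libraries with a value of 0. Col8a1 in MI P56 (467.7 to 1141) lies above every other filled point, and Col18a1 at P56 (1.06 to 10.6) lies below its P1 points (16.9 to 43.2).

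Per kilobase of exon, the order of the levels differed between the ages. In MI P56 Col8a1 stood first at 104 ± 43.0 per kb, followed by Col15a1 at 24.4 ± 12.9, Col4a2 at 22.8 ± 3.42 and Col4a1 at 21.5 ± 2.93 (SD, n = 3), and the last 3 of these did not differ beyond their spread. In sham P56 Col8a1 (25.5 ± 21.7), Col4a1 (19.0 ± 3.55), Col4a2 (16.9 ± 4.20) and Col15a1 (16.5 ± 14.5 per kb, SD, n = 4) were not apart beyond their spread. In MI P1 the order was Col4a2 at 34.1 ± 11.5 and Col4a1 at 33.8 ± 10.0, then Col15a1 at 11.3 ± 4.42, Col8a1 at 5.42 ± 2.75 and Col18a1 at 4.50 ± 1.36 per kb (SD, n = 4). In sham P1 Col4a1 (27.7 ± 5.04) and Col4a2 (23.9 ± 0.660) were again first, Col15a1 had 14.9 ± 5.73, Col8a1 4.44 ± 1.82 and Col18a1 3.30 ± 1.27 per kb (SD, n = 2). Col4a3, Col4a4, Col4a5 and Col4a6 averaged 2.65 per kb or less in every group.

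Col4a1 and Col4a2, the chains of the ubiquitous trimer, were the type IV genes with the highest levels per kilobase in every library. Col4a1 had values of 148.9, 147.1 and 185.9 in MI P56, 108.9, 171.4, 152.0 and 135.0 in sham P56, 344.0, 277.9, 215.4 and 172.2 in MI P1, and 180.4 and 233.7 in sham P1. Col4a2 had 141.9, 133.7 and 176.3 in MI P56, 75.6, 140.1, 105.8 and 124.8 in sham P56, 305.5, 259.7, 207.7 and 128.5 in MI P1, and 161.3 and 155.1 in sham P1. All sham P56 libraries lay below both sham P1 libraries for both genes, whereas MI and sham libraries overlapped at each age. With all 16 libraries the sham groups overlapped for Col4a2, sham P1 library 2 having 109 (27 reads). The log2 change with age in sham was -0.55 ± 0.27 (SE) for Col4a1 and -0.54 ± 0.30 for Col4a2, with limma adjusted p of 0.198 and 0.271, and after MI it was -0.61 ± 0.24 and -0.52 ± 0.27, with adjusted p of 0.159 and 0.322. The MI change at P56 was 0.19 ± 0.24 for Col4a1 and 0.46 ± 0.27 for Col4a2, and at P1 it was 0.25 ± 0.27 and 0.44 ± 0.30, none of them called. The gene Gm44716 lies within Col4a1 on the same strand over 710 bases, so reads there may have been split.

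The ratio of Col4a1 to Col4a2 per kilobase stayed between 0.920 and 1.34 in the 13 libraries. It was 0.947 ± 0.0249 in MI P56 (SD, n = 3), 1.15 ± 0.156 in sham P56 (n = 4), 1.01 ± 0.122 in MI P1 (n = 4) and 1.17 ± 0.246 in sham P1 (n = 2). Over the 13 libraries the 2 genes had a Pearson correlation of 0.93 on the log2(value + 1) scale, with 0.89 over the 7 P56 libraries and 0.91 over the 6 P1 libraries. These correlations are descriptions over libraries that share 4 groups. A part of the start regions printed above in this likeness was not tested.

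Of the genes of the glomerular-type trimer, Col4a3 and Col4a4 were higher in adult than in neonatal sham libraries. Col4a5, whose chain joins theirs, was not called there (log2 change -0.19 ± 0.51, SE, limma adjusted p = 0.863). Col4a3 had values of 6.5, 21.0, 12.8 and 17.5 in sham P56, against 1.71 and 0.507 in sham P1. Col4a4 had values of 7.73, 24.7, 16.5 and 20.7 in sham P56, against 2.62 and 2.32 in sham P1. No sham P56 library overlapped a sham P1 library for either gene, and the lowest count behind these values was 14 reads. The mean of Col4a3 was 13 times as high in sham P56 as in sham P1, a fold that rests on 2 sham P1 libraries and was 28.5 without library 3 and 8.45 without library 5. On the log2(value + 1) scale, which understates changes of low genes, the change was 2.83 ± 0.58 (SE), and edgeR gave 3.65 on the reads. For this change limma gave an adjusted p of 0.00248 with 13 libraries and 0.0450 with 16. The mean of Col4a4 was 7.05 times as high (6.07 to 8.36 without 1 library), with a log2 change of 2.30 ± 0.44 (adjusted p = 0.00134 with 13 libraries and 0.0122 with 16). Leaving out 1 library at a time kept the call of Col4a4 in 13 of 13 cases, and that of Col4a3 in 12 of 13, the exception being sham P1 library 5 (2.40, adjusted p = 0.0757).

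After MI neither gene was called between the ages. Col4a3 had values of 5.76, 8.75 and 10.2 in MI P56, against 11.9, 3.45, 1.495 and 1.11 in MI P1, and Col4a4 had 6.49, 10.97 and 7.28 in MI P56, against 9.73, 3.02, 3.74 and 4.07 in MI P1. The groups overlapped for both genes because of MI P1 library 1, the highest of its group. The log2 change was 1.12 ± 0.51 for Col4a3 (SE, adjusted p = 0.246) and 0.67 ± 0.38 for Col4a4 (adjusted p = 0.382). Without MI P1 library 1 the change of Col4a3 was 1.66 with an adjusted p of 0.0411.

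The direction of the MI change of this pair was negative at P56 and positive at P1, and neither was called. At P56 Col4a3 averaged 8.25 ± 2.28 in MI libraries (SD, n = 3) and 14.4 ± 6.26 in sham libraries (n = 4). Its change was -0.66 ± 0.51 on the log2(value + 1) scale (SE, limma adjusted p = 0.545). Col4a4 averaged 8.25 ± 2.40 in MI P56 and 17.4 ± 7.25 in sham P56, a change of -0.92 ± 0.38 (adjusted p = 0.215). At P1 the changes were 1.05 ± 0.58 and 0.71 ± 0.44, each with an adjusted p of 1.00. All 4 MI P1 libraries exceeded both sham P1 libraries for Col4a4, which describes these few libraries only. The difference between the responses (P56 minus P1) was -1.71 ± 0.77 for Col4a3 (unadjusted p = 0.0391, adjusted p = 0.418) and -1.63 ± 0.58 for Col4a4 (unadjusted p = 0.0113, adjusted p = 0.253), so it was not shown.

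As a share of the 6 type IV genes summed per kilobase, Col4a1 and Col4a2 made up 92.0% to 92.9% in MI P56, 81.1% to 91.1% in sham P56, 92.1% to 95.4% in MI P1 and 94.6% to 95.9% in sham P1. Col4a3 and Col4a4 together made up 2.67% to 4.41% in MI P56, 4.83% to 8.81% in sham P56, 0.786% to 2.16% in MI P1 and 0.472% to 0.815% in sham P1. The sham P56 range of this second share lay above the ranges of the other 3 groups. The sum itself was 47.9 ± 6.92 per kb in MI P56 (SD, n = 3), 41.4 ± 10.6 in sham P56 (n = 4), 71.9 ± 22.2 in MI P1 (n = 4) and 54.2 ± 4.03 in sham P1 (n = 2). These shares were not tested.

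Markers of other cells also differed with age in sham libraries. Where 5.89% of all genes were called higher in sham P56 than in sham P1, all 8 cardiomyocyte markers were (summed values 1270 to 2310 against 146 to 222), as were 4 of 9 blood endothelial markers (478 to 722 against 147 to 177) and 3 of 8 markers of pericytes and smooth muscle (463 to 1160 against 105 to 216). At P56, where 1.07% of all genes were called lower and 2.36% higher with MI, the same sums were lower in MI than in sham libraries, at 320 to 566 against 1270 to 2310 for cardiomyocytes (8 of 8 called lower), 178 to 359 against 478 to 722 for blood endothelium (3 of 9) and 215 to 339 against 463 to 1160 for pericytes and smooth muscle (2 of 8 lower and 1 higher). Myh6, the atrial and adult ventricular myosin heavy chain, averaged 37.7 ± 11.9 in MI P56 (SD, n = 3), 213 ± 65.9 in sham P56 (n = 4), 27.8 ± 15.7 in MI P1 (n = 4) and 16 ± 8.46 in sham P1 (n = 2). With all 16 libraries, 1 of 8 cardiomyocyte markers was called lower with MI at P56, and none of the other 2 lists in either direction. With age in sham, 7 of 8 cardiomyocyte, 2 of 9 blood endothelial and 1 of 8 pericyte and smooth muscle markers were called higher in that fit. Among all genes it called 0.0302% lower with MI at P56 and 2.52% higher with age in sham. The part of these cells in the values of Col4a3 and Col4a4 was not tested.

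**Figure D2:**
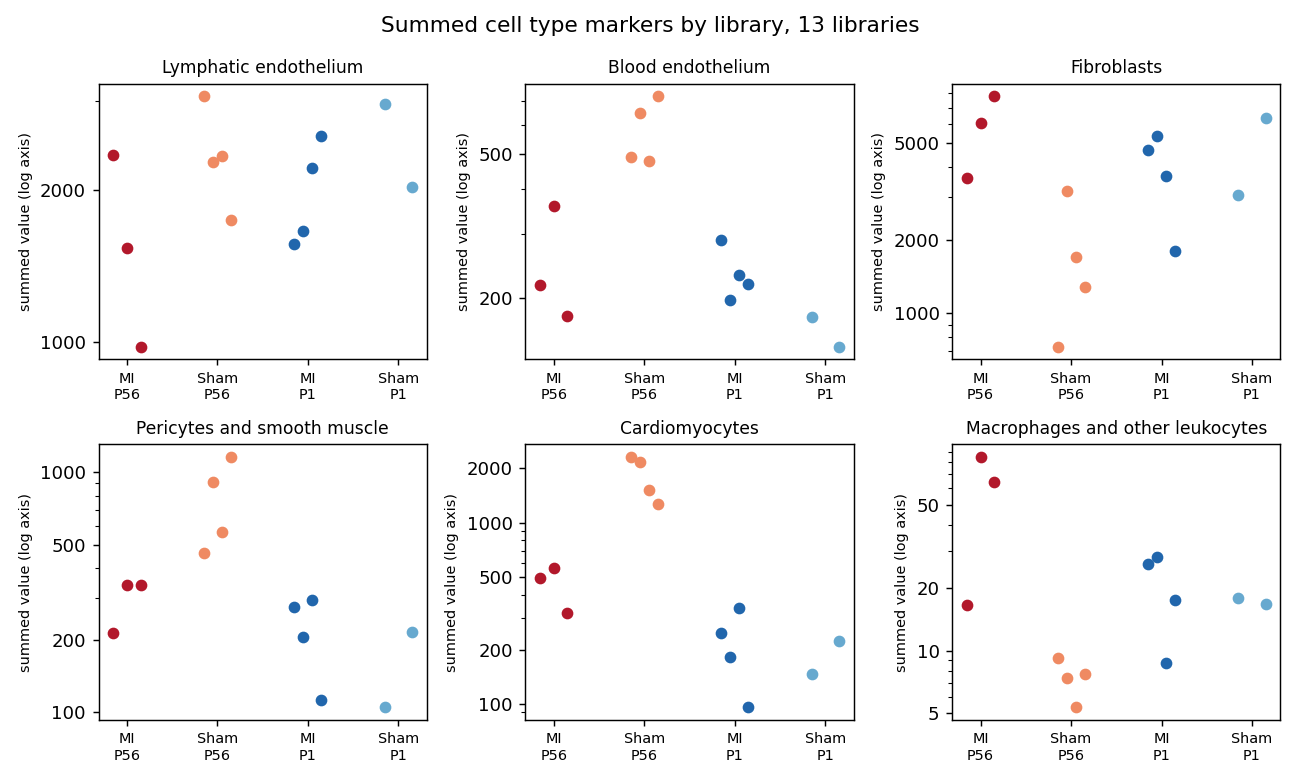
Summed deposited values (log axis) of 6 lists of cell type markers in each of the 13 libraries, by group. Each point is a library. Sham P56 has the highest cardiomyocyte sums (1270 to 2310), and MI P56 has fibroblast sums of 3610 to 7800, against 731 to 3190 in sham P56.

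Col4a5 and Col4a6, the third pair, were called in no comparison. Col4a5 had values of 10.7, 9.57 and 15.7 in MI P56, 5.33, 39.0, 6.62 and 7.52 in sham P56, 21.0, 18.9, 14.7 and 16.7 in MI P1, and 14.3 and 9.85 in sham P1. Sham P56 library 2 stood apart at 39.0. All 4 MI P1 libraries lay above both sham P1 libraries, but only just (lowest 14.66 against highest 14.26). The MI change of Col4a5 was 0.17 ± 0.45 at P56 (SE, limma adjusted p = 0.887) and 0.54 ± 0.51 at P1 (adjusted p = 1.00), and its change with age was -0.19 ± 0.51 in sham (adjusted p = 0.863) and -0.55 ± 0.45 after MI (adjusted p = 0.575). Col4a6 had the lowest level per kilobase of the 9 genes at P56 and ranged from 0.647 to 5.53 over the 13 libraries, with 25 reads behind its lowest value. Its changes lay between -0.54 and 0.21 in the 4 comparisons of single groups, with standard errors of 0.40 to 0.46. Unlike the first 2 pairs, Col4a5 and Col4a6 had a correlation of -0.19 over the 13 libraries, -0.60 over the 7 P56 libraries and -0.17 over the 6 P1 libraries. The first 2 of these rested on sham P56 library 2: without it the correlation was 0.28 over the other 12 libraries and 0.03 over the 6 at P56. The ratio of Col4a5 to Col4a6 per kilobase ran from 2.16 to 71.5, and to 12 without that library. The other pairs kept correlations of 0.93 for Col4a1 with Col4a2 and 0.92 for Col4a3 with Col4a4 over those 12. The plot of the pairs shows this difference.

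**Figure D3:**
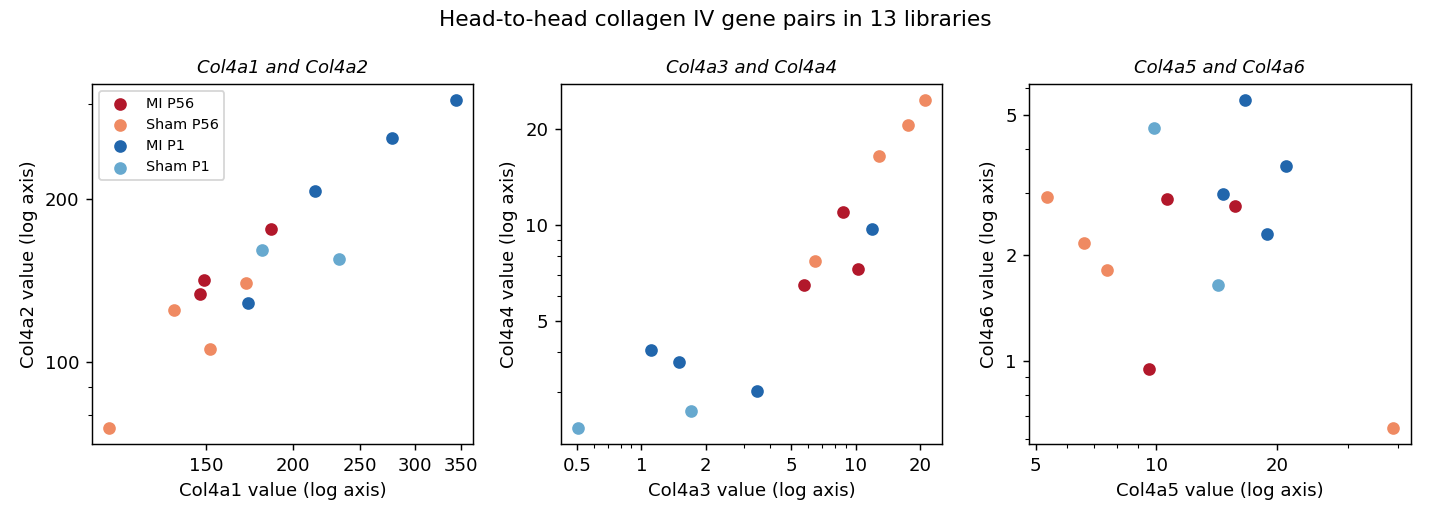
Deposited values of the 2 genes of each head-to-head type IV pair against each other in the 13 libraries (both axes log), coloured by group. Each point is a library. Col4a1 with Col4a2 (r = 0.93) and Col4a3 with Col4a4 (r = 0.93) lie along a rising line, and Col4a5 with Col4a6 (r = -0.19, and 0.28 without sham P56 library 2) do not.

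Col8a1 had the widest range of the 9 genes and was higher in adult than in neonatal libraries, 19.2 times after MI and 5.75 times in sham by their means. The gene (ENSMUSG00000068196, minus strand) covers chr16:57624258-57754737. Its values were 832.3, 467.7 and 1141 in MI P56, 41.4, 434.0, 204.1 and 119.8 in sham P56, 42.4, 69.9, 40.5 and 17.3 in MI P1, and 24.7 and 44.9 in sham P1. Every MI P56 library lay above every library of the other groups, and the sham P56 libraries ranged over the values between the neonatal ones and MI P56, with 1 (41.4) inside the neonatal range. After MI the P56 mean was 19.2 times the P1 mean, and 15.3 to 24.4 times without 1 library (814 ± 337, SD, n = 3, against 42.5 ± 21.5, n = 4). The log2 change was 4.29 ± 0.56 (SE, limma adjusted p = 1.2e-04), which ranked second of all 13033 genes, and it was 3.90 with an adjusted p of 0.0394 over 16 libraries. It was called in each of the 13 fits without 1 library (3.92 to 4.64), by edgeR (adjusted p = 0.00128) and by DESeq2 (adjusted p = 1.3e-07).

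In sham libraries the age change of Col8a1 was also called, but not in every setting. Col8a1 averaged 199.8 ± 169.7 in sham P56 (SD, n = 4) and 34.8 ± 14.3 in sham P1 (n = 2), a log2 change of 2.09 ± 0.63 (SE, limma adjusted p = 0.0334). The groups overlapped. The fold of means was 5.75, and 3.5 without sham P56 library 2. The call was lost over all 16 libraries (2.31, adjusted p = 0.0784), in the fit on these 2 groups alone (2.09, 0.10) and with a replicate block (2.02, 0.0526), and likewise when sham P56 library 2 (1.57, 0.0509) or 3 (1.93, 0.0721) or sham P1 library 3 (1.67, 0.272) or 5 (2.51, 0.0940) was left out.

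At P56 Col8a1 averaged 814 ± 337 in MI libraries (SD, n = 3) and 199.8 ± 169.7 in sham libraries (n = 4), 4.07 times as high (6.68 times without sham P56 library 2, and 3.22 to 4.94 without any other). The log2 change was 2.39 ± 0.56 (SE, limma adjusted p = 0.0207), rank 48 of 13033 genes. The call was lost with all 16 libraries (1.99, adjusted p = 0.462), where MI P56 library 5 (254.5 from 59 reads) brought the groups to overlap, and with edgeR (2.03, 0.0736), DESeq2 (1.99, 0.0549) and a fit on these 2 groups alone (2.39, 0.0687). It was also lost without MI P56 library 1 (2.32, 0.0715) or 3 (2.10, 0.137) or sham P56 library 5 (2.29, 0.0509). At P1 Col8a1 averaged 42.5 ± 21.5 in MI libraries (SD, n = 4) and 34.8 ± 14.3 in sham libraries (n = 2), and the log2 change of 0.19 ± 0.63 (SE) was not called (adjusted p = 1.00). The difference between the responses was 2.20 ± 0.84 (unadjusted p = 0.0171, adjusted p = 0.307) and was not shown in this fit.

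Fibroblast markers moved with Col8a1 in some of these comparisons and against it in another. Their summed value was 3610 to 7800 in MI P56 and 731 to 3190 in sham P56. Of the 9 markers 4 were called higher (3 with 16 libraries), where 2.36% of all genes were. Single fibroblast markers differed among themselves. Col1a1, itself a collagen gene, averaged 1440 ± 643 in MI P56 (SD, n = 3) and 147 ± 90.1 in sham P56 (n = 4), Pdgfra 82.7 ± 25.1 and 56.5 ± 22.6, Dcn 613 ± 197 and 738 ± 442, and Tcf21 5.04 ± 1.76 and 5.13 ± 4.94, in MI P56 and sham P56 in each case. Between sham P56 and sham P1, where Col8a1 was higher, the fibroblast sum was 731 to 3190 in sham P56 and 3050 to 6320 in sham P1. There 4 of 9 markers were called lower (2 with 16 libraries) and none higher, where 7.28% of all genes were called lower. After MI the sums overlapped between P56 (3610 to 7800) and P1 (1810 to 5370). At P56 1 of 9 markers was called higher, where 2.09% of all genes were. Within sham P56 the sums of libraries 1, 5, 3 and 2 (731, 1280, 1710 and 3190) stood in the order of their Col8a1 values. Within MI P1 those of libraries 5, 3, 1 and 2 (1810, 3670, 4700 and 5370) did too, as did the sham P1 libraries. In MI P56 the order differed, with sums of 3610, 6030 and 7800 beside Col8a1 values of 832.3, 467.7 and 1141. Leukocyte markers summed to 16.5 to 85.0 in MI P56 and 5.35 to 9.19 in sham P56, with 2 of 5 tested called higher, beside the same 2.36% of all genes. The part of fibroblasts and leukocytes in the values of Col8a1 and its changes was not tested. Its partner in type VIII collagen, Col8a2, named here after its values were seen, did not reach the filter, with at most 0.875 in any of the 13 libraries.

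The multiplexins parted, in that Col18a1 was lower at P56 and Col15a1 was not called. Col18a1 (ENSMUSG00000001435, minus strand, chr10:77052178-77166548) had values of 10.6, 3.90 and 6.38 in MI P56, against 43.2, 24.2, 23.4 and 35.7 in MI P1, and 8.00, 1.06, 7.62 and 4.10 in sham P56, against 29.5 and 16.9 in sham P1. No P56 library reached a P1 library among the 13. The log2 change was -2.13 ± 0.49 in sham (SE, limma adjusted p = 0.00632) and -2.08 ± 0.43 after MI (adjusted p = 0.00718), and the P1 mean was 4.46 times the P56 mean in sham and 4.54 times after MI (3.25 to 5.67 and 3.72 to 6.15 without 1 library). With all 16 libraries neither was called (-2.13, adjusted p = 0.0796, and -1.76, adjusted p = 0.574), sham P1 libraries 1 and 2 having 107.8 (902 reads) and 4.04 (1 read). The call in sham was also lost without sham P1 library 3 (-1.74, 0.124) and in the fit on its 2 groups alone (0.0502), and the one after MI without MI P56 library 2 (-1.77, 0.0608). edgeR called both, with adjusted p of 0.0155 in sham and 0.0311 after MI.

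MI did not move Col18a1 past the test at either age, with a log2 change of 0.49 ± 0.43 at P56 (SE, limma adjusted p = 0.615) and 0.44 ± 0.49 at P1 (adjusted p = 1.00). Slc19a1, a folate carrier, lies on the opposite strand over 8825 bases of Col18a1, and the strand setting of the counting is not given in the sources used here, so reads of the 2 genes cannot be told apart there. The summed value of 4 endocardial markers was 36.4 to 39.1 in MI P56 against 99.2 to 117 in MI P1, and 32.2 to 67.8 in sham P56 against 87.2 to 88.8 in sham P1. After MI 2 of the 4 were called lower at P56, where 3.26% of all genes were. In sham the single markers split, with 2 called lower, 2 higher and a median log2 change of -0.09, where 7.28% of all genes were called lower and 5.89% higher. Npr3 averaged 20.8 ± 7.65 in sham P56 (SD, n = 4) and 5.90 ± 1.27 in sham P1 (n = 2). Mesothelial markers summed to 13.5 to 36.8 in MI P56 against 51.9 to 91.4 in MI P1 (1 of 6 called lower, median -1.40), but overlapped in sham, at 10.8 to 112 in sham P56 against 24.8 to 41.7 in sham P1. Of the fibroblast markers, 4 of 9 were called lower in sham P56, with sums that overlapped slightly, and none lower after MI. The part of endocardial, mesothelial and fibroblast cells in the values of Col18a1 was not tested.

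Col15a1 (ENSMUSG00000028339, plus strand, chr4:47208161-47313167) had values of 114.3, 102.1 and 249.3 in MI P56, 22.4, 235.2, 91.3 and 69.2 in sham P56, 94.9, 77.3, 83.7 and 31.2 in MI P1, and 68.8 and 120.2 in sham P1. The sham P56 libraries alone spanned nearly the whole range, with library 2 at the top, while all MI P56 libraries lay above all MI P1 libraries. Fibroblast sums of sham P56 libraries 1, 5, 3 and 2 (731, 1280, 1710 and 3190) stood in the order of their Col15a1 values. Those of sham P1 libraries 3 and 5 (3050 and 6320) did too. In MI P56 and in MI P1 the 2 orders differed in part. The part of fibroblasts in the values of Col15a1 was not tested. The change after MI between the ages was 1.10 ± 0.54 (SE, limma adjusted p = 0.294), and the MI change was 0.90 ± 0.54 at P56 (adjusted p = 0.417) and -0.45 ± 0.61 at P1 (adjusted p = 1.00). In sham the age change was -0.25 ± 0.61 (adjusted p = 0.844), and it was 0.86 with 16 libraries. The ratio of Col18a1 to Col15a1 per kilobase was 0.0472 ± 0.0323 in MI P56 (SD, n = 3) and 0.114 ± 0.142 in sham P56 (n = 4), against 0.494 ± 0.364 in MI P1 (n = 4) and 0.257 ± 0.184 in sham P1 (n = 2). Single libraries weighed on these means: without sham P56 library 1 (0.323) the sham P56 mean was 0.0444, and without MI P1 library 5 (1.03) the MI P1 mean was 0.316. The sham groups overlapped, since sham P56 library 1 lay above sham P1 library 5 (0.127), while the MI groups did not.

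**Figure D4:**
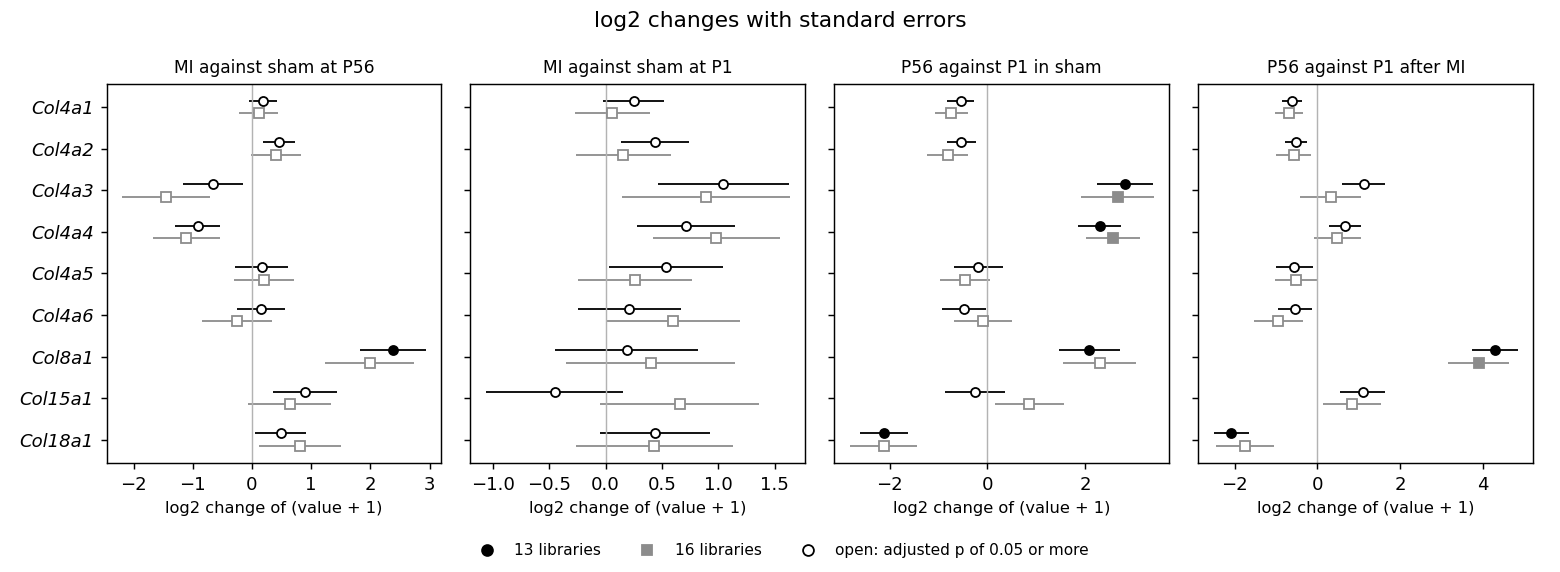
log2 change of (value + 1) with its standard error for the 9 collagen genes in 4 comparisons, from the limma fits with 13 libraries (black circles) and with all 16 (grey squares); filled symbols have an adjusted p under 0.05 and each panel has its own axis. Col8a1 after MI between P56 and P1 is at 4.29 with 13 libraries and 3.90 with 16, both filled, and no symbol is filled for MI against sham at P1.

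Genes that act on or beside these collagens were taken from 4 lists. The list of collagen biosynthesis enzymes and chaperones had 22 genes tested of 22 listed. Most of them hydroxylate, glycosylate or fold collagen chains in the endoplasmic reticulum, but Loxl2, Loxl4, Mia3 and Creb3l1, also listed, do not. For MI against sham at P56, 7 of the 22 were called higher and none lower, where 2.36% of all genes were called higher, and their median log2 change was 0.93. For MI against sham at P1 none of the 22 was called, with a median of 0.08. At P56 P4ha3, a catalytic subunit of prolyl 4-hydroxylase, averaged 15.2 ± 2.77 in MI (SD, n = 3) and 0.449 ± 0.539 in sham libraries (n = 4), a log2 change of 3.54 ± 0.42 (SE, limma adjusted p = 8.3e-05, and 0.0271 with 16 libraries). Creb3l1, a transcription factor of collagen secretion in bone, averaged 42.8 ± 12.4 in MI P56 and 6.03 ± 0.796 in sham P56, a change of 2.60 ± 0.42 (adjusted p = 0.00148). P3h1 (a prolyl 3-hydroxylase) changed by 2.25, Serpinh1 (the collagen chaperone HSP47) by 1.67, Plod2 (a lysyl hydroxylase) by 1.63 and P4hb (the other subunit of prolyl 4-hydroxylase) by 1.42, all on the log2 scale. With all 16 libraries P4ha3 was the only one of the 7 still called.

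The genes of this list were also compared between the ages. The difference between the MI responses was called for Creb3l1 (2.88 ± 0.63, SE, limma adjusted p = 0.0470), 1 of 22, and not with 16 libraries. Among all genes 0.322% were called higher for this difference with 13 libraries. In sham, P4ha3 (-2.94), Creb3l1 (-1.82) and P4hb (-0.99) were lower at P56, and none was higher, where 7.28% of all genes were called lower. After MI, P4ha1 (1.01) and P4ha2 (1.74), the other catalytic subunits of prolyl 4-hydroxylase, were higher at P56, where 2.09% of all genes were. None of these 5 calls was kept with 16 libraries, where 0 of the 22 genes were called in either age comparison. Fibroblast sums differed in the same direction as these genes for MI at P56 and for age in sham, as given above, while sums of endothelium in general were lower with MI at P56, and the part of either was not tested.

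**Figure D5:**
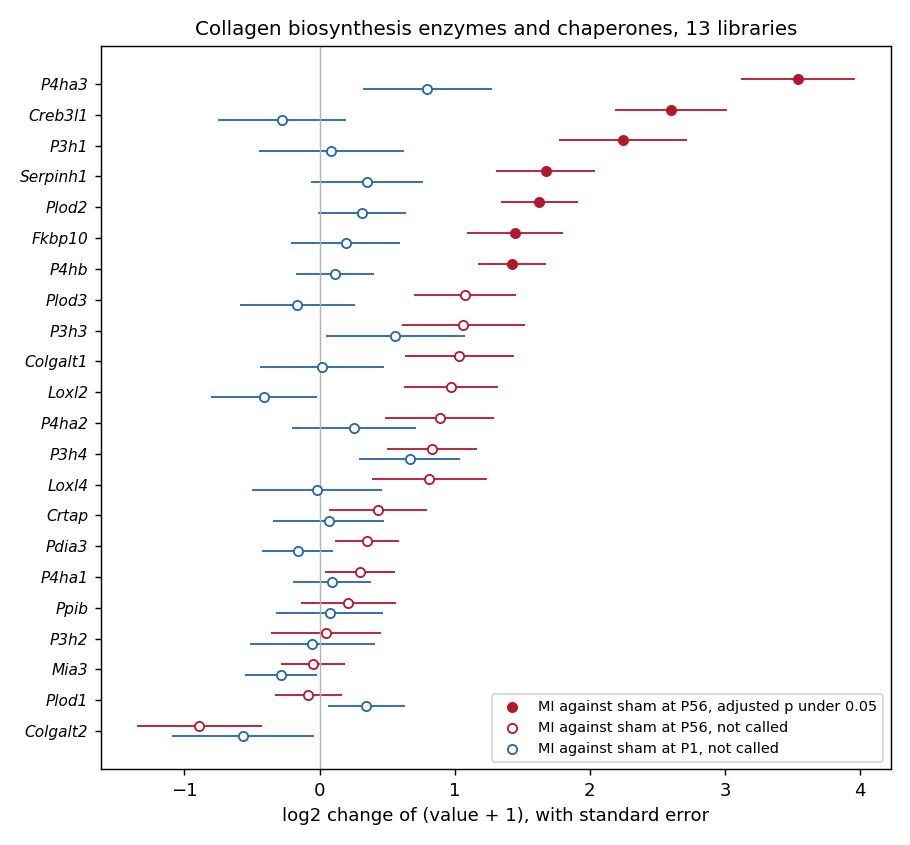
log2 change of (value + 1) with its standard error for 22 collagen biosynthesis enzymes and chaperones, for MI against sham at P56 (red) and at P1 (blue), 13 libraries, ordered by the P56 change. Filled points have an adjusted p under 0.05. P4ha3 (3.54) and Creb3l1 (2.60) lead at P56, and no point is filled at P1.

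Of the other basement membrane genes, laminins, nidogens and proteoglycans included, 20 of 23 were tested. Among all genes, 2.36% were called higher with MI at P56. With age 7.28% were called lower in sham and 3.26% after MI. Sparc, a collagen-binding matricellular protein, was the only one called for MI at P56, with 1238 ± 471 in MI (SD, n = 3) and 438 ± 185 in sham libraries (n = 4) and a log2 change of 1.52 ± 0.36 (SE, limma adjusted p = 0.0220). Pxdn, the peroxidase that cross-links type IV collagen, was lower at P56 than at P1 in sham (-1.50 ± 0.29, adjusted p = 0.00165) and after MI (-0.90 ± 0.26, adjusted p = 0.0453). Agrn (agrin, a heparan sulfate proteoglycan; -0.96) and Npnt (nephronectin, an integrin ligand; -2.36, adjusted p = 9.8e-04) were lower at P56 after MI, and of the calls in this list, Sparc included, only that of Npnt was kept with 16 libraries (-2.45, adjusted p = 0.0237). None was higher at P56 in either state.

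Of the other network and membrane-bound collagens and their relatives, 6 of 10 were tested, and Mmrn2, the endothelial matrix protein multimerin 2, was the only one called. It averaged 17.6 ± 3.87 in MI P56 (SD, n = 3) and 38.1 ± 11.03 in sham P56 (n = 4), which differed by -1.05 ± 0.27 on the log2 scale (SE, limma adjusted p = 0.0344), a call not kept with 16 libraries. It was higher in sham P56 than in sham P1 by 1.65 (adjusted p = 0.00101, and 0.0307 with 16 libraries). Among all genes 1.07% were called lower with MI at P56 and 5.89% higher with age in sham. The blood endothelial sums given above differed the same way in both comparisons, and their part was not tested. Of 21 basement membrane receptors 20 were tested. Itga5, the fibronectin-binding integrin subunit, was higher in MI than in sham at P56 (1.41 ± 0.26, adjusted p = 0.00372), as was the syndecan Sdc4 (1.81 ± 0.39, adjusted p = 0.0128). These were 2 of 20, where 2.36% of all genes were called higher. In sham, 4 of 20 receptors were higher at P56 and 2 lower, where 5.89% of all genes were called higher and 7.28% lower. Those higher were Bcam, a laminin receptor (2.04), Sdc1 (1.65), Itgb3 (0.95) and Itga1, a collagen receptor subunit (0.89). Itgav (-0.86) and Itga5 (-0.97) were the lower ones. After MI the glypican Gpc3 was the only one called, lower at P56 with a log2 change of -3.01 ± 0.45 (SE, adjusted p = 4.0e-04). Of all genes 3.26% were called lower in that comparison. With 16 libraries only the calls of Bcam and Itga1 were kept in this list.

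The genes whose log2 values ran most like each collagen over the 13 libraries were looked up among 6099 genes with a mean of at least 5, as a description over libraries that share 4 groups. Col4a1 and Col4a2 were each other's nearest gene, with r = 0.93, followed by Pde3a and Pxdn for Col4a1 and by Ncam1 and Zfp36l1 for Col4a2. For Col4a3 the order was Cmip (r = 0.94), Col4a4 (0.93) and Sema6d (0.93), and for Col4a4 it was St8sia4 (0.95), Ly6c1 and Ablim1. Col8a1 was nearest to Ifi204 (r = 0.98), Serpinf1 (0.96) and Pmepa1 (0.95), and Col18a1 to Adamts1 (0.97), Piezo1 (0.97) and Celsr1 (0.96). Col15a1 was nearest to G6pdx (0.95), Pde1a and Olfml3, and Col4a5 to Spats2 (0.94), Cbfb and Eif2a. Col4a6 fell under the mean of 5 and was not compared.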

How the data were processed

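RNA was sequenced as 80-base single reads from Ovation RNA-Seq V2 libraries, per the labels' protocols. The submitters' processing notes name Trimmomatic, STAR, HTSeq, edgeR and the build mm10 (GRCm38); tool versions are not given in the sources used here. The deposited table holds 1 normalized signal value per gene and library, which the authors named CPM. Divided by the worth of 1 read in its library, 100% of values came out whole (within 0.01 read), which gave back the reads. The table numbers the libraries of a group 1, 2, 3 and 5 and the labels 1 to 4; library 5 was given its group from the column name.

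Genes that reached a value of 1 in 4 or more libraries entered the tests, and limma-trend (limma 3.58.1, R 4.3.3) was fitted to log2(value + 1) in 13 libraries with at least 10000 genes with a read, for 5 comparisons, two-sided, with Benjamini-Hochberg adjustment over all genes; changes of low genes are understated on this scale. The fit was tested on simulated data. Alternatives were count tests on those reads with DESeq2 1.42.0 and edgeR 4.0.16 (its quasi-likelihood test), all 16 libraries, array weights, other pseudocounts, filters and scalings, the groups compared alone, a replicate block and each library left out. Folds of means, chain ratios and pair correlations without single libraries were added after seeing the data. Levels per kilobase use merged exons of GENCODE M21. Promoter sequences are from RefSeq on GRCm38.p6. Named were all 9 members, up to 6 called genes per related list and comparison, the 3 nearest genes by Pearson correlation, and markers by their sums and defining genes. Col1a1, Dcn, Lyve1, Flt4 and Pdpn were named in addition to the defining genes. The members and lists were chosen with earlier results of these data known.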

Additional observations from a re-analysis of the deposited data

Results flagged for a closer look

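Of the 36 sets of 4 libraries (9 genes in 4 groups, all 16 libraries), 3 had a library whose gap to the next exceeded the 95% critical value of Dixon's test, and chance gives about 1 in 20. Col4a2 was 497 in sham P1 library 1, which was left out of the fit with 13 libraries, and the next highest library had 161. Col4a4 was 9.73 in MI P1 library 1, and the next had 4.07. Col4a5 was 39.0 in sham P56 library 2, the library with the fewest detected genes of the 13 (14121), and the next had 7.52.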

How the results depend on the processing

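The number of the 9 genes called for MI at P56 (1) was 0 with all 16 libraries, with the compared groups alone, with edgeR and with DESeq2, and 0 to 1 without 1 library. For age in sham (4) it was 2 with all 16 libraries and with the compared groups alone, and 2 to 4 without 1 library. For age after MI (2) it was 1 with all 16 libraries and 1 to 3 without 1 library. For the difference between the responses (0) it was 1 with array weights, Col8a1 at 2.12 (adjusted p = 0.0391, against 0.0544 to 0.913 in all other settings), and 0 without any 1 library, as for MI at P1. The cause of these changes was not tested.

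The sign of uncalled changes turned in several settings. With all 16 libraries these were Col4a6 for MI at P56 (-0.25), Col15a1 for MI at P1 (0.66), the difference (-0.02) and age in sham (0.86), and Col4a1 for the difference (0.06). With array weights they were Col4a6 for MI at P56 (-0.10) and, for the difference, Col4a2 (-0.07), Col4a5 (0.16) and Col18a1 (-0.24). For the difference in Col18a1 they were pseudocount 4 (-0.10), quantile normalization (-0.07) and DESeq2 (-0.01). edgeR and DESeq2 gave for Col4a5 -0.29 and -0.32 (MI at P56) and 0.24 and 0.28 (age in sham), for Col15a1 0.10 and 0.14 (age in sham), and for the difference -0.04 and -0.06 in Col4a2 and 0.05 and 0.03 in Col4a6. The adjusted p of Col4a5 was NA in DESeq2 for both comparisons.

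Without 1 library, signs turned for Col4a5 (MI at P56 -0.11 to 0.77, difference -0.65 to 0.24, age in sham -0.79 to 0.09), Col4a6 (MI at P56 -0.10 to 0.47, MI at P1 -0.33 to 0.75, difference -0.60 to 0.48, age in sham -1.02 to 0.06), Col8a1 (MI at P1 -0.23 to 0.61), Col15a1 (age in sham -0.79 to 0.33) and, for the difference, Col4a1 (-0.24 to 0.13), Col4a2 (-0.23 to 0.19) and Col18a1 (-0.41 to 0.43).

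Same-numbered libraries of different groups had correlations of -0.32 to 0.14 (15 pairs, mean -0.04, against 0.014 for other pairs). Within P56 they were 0.135, 0.04 and 0.068, and within P1 -0.091 and -0.32. Groups were centred first, which makes the 2 sham P1 libraries mirror images of each other. These correlations therefore cannot decide whether the numbers pair libraries. With a replicate block Col8a1 for age in sham was 2.02 (adjusted p = 0.0526), the difference in Col18a1 was -0.04, and no other call of the 9 genes changed. The difference was not fitted on 2 groups alone, and Col4a6 was not tested with a minimum of 5. Sham P1 rests on 2 libraries; 3 reads were worth at most 0.109 in the 13 libraries.

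Over all genes, calls for MI at P56 (446) were 23 with 16 libraries, 899 with array weights, 153 with the compared groups alone and 866 with DESeq2. For MI at P1 (0) they were 70 with weights, 8 with the compared groups and 7 with DESeq2. For the difference (63) they were 1 with 16 libraries, 438 with weights, 324 with DESeq2, 34 with pseudocount 4 and 8 with the block. For age in sham (1716) they were 518, 3053 and 728 with 16 libraries, weights and the compared groups. For age after MI (697) they were 14, 1419 and 1136. Without 1 library they ranged from 143 to 645, 0 to 2, 1 to 228, 644 to 2270 and 317 to 1344 in the 5 comparisons.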
